A study of Mus musculus with 16 samples.

Results

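The genes of the DNA replication machinery were followed in mouse liver as 42 members, matched by exact gene symbol, of 25803 genes in the deposited count tables. A total of 39 members passed the filter on low counts, as did 14488 genes in all. Orc1, Pole2 and Fen1 did not pass, and Cdc6 passed on its refed knockout libraries alone. The members were proposed from values of these data, since Mcm5 stood out in refed knockout against refed control livers and Mcm6 in how far the genotype effect changed with feeding. Both comparisons, and refed against fasted knockout livers, which shares libraries with them, are therefore given as descriptions. The edgeR calls counted in them, also under other settings, describe the members and are not read as a test. Fasted knockout against fasted control, and refed against fasted control, are given with edgeR's calls. Both share libraries with the comparisons that led to the members, so these calls are not independent of the choice either.

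All livers came from male mice given a high-fat diet (HFD) for 12 weeks. Fasted control and fasted LKO livers were taken after a 16 h fast. Refed control and refed LKO livers were taken once that fast had been followed by 6 h with food. LKO denotes a knockout of Cpt1a in the liver. Cpt1a encodes the enzyme of the outer mitochondrial membrane through which long-chain fatty acids enter oxidation. The series text calls the control genotype WT, and the promoter or Cre line behind the deletion is not given in the sources used here. Each of the 4 groups had 4 poly-A RNA libraries. Those of the fasted control group are S40 to S43 and those of the fasted LKO group S44 to S47. The refed control group holds S48 to S51, and the refed LKO group S52 to S55. Values are given in that order of libraries throughout. The labels do not say that each library came from a separate animal, so p-values measure the spread between these libraries.

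Libraries held 14721601 to 24618230 counts. Cpt1a stood at 378 to 556 CPM (counts per 1000000 of the scaled library) in fasted control and 86.1 to 126 CPM in fasted LKO. In refed livers it stood at 319 to 620 CPM in control and 39.9 to 75.2 CPM in LKO, so the genotype labels held in all 16 libraries. The 8 hepatocyte markers (Alb, Apoa1, Ttr, Serpina1a, Hnf4a, Tat, Cps1, Asgr1) summed to 57930 to 87330 CPM over the 16 libraries. Library S52 of refed LKO stood apart for the replication genes: it was the highest of all 16 for 34 of the 42 members.

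Replication of a chromosome starts where the origin recognition complex (ORC) sits on DNA. ORC, CDC6 and CDT1 load the ring-shaped MCM helicase, made of MCM2 to MCM7, in the G1 phase of the cell cycle, and CDC45 and the GINS complex turn the loaded ring into the active helicase at the start of S phase. RPA then covers the single strands, polymerase alpha with primase lays down primers, the clamp loader RFC closes the PCNA clamp, and polymerases delta and epsilon extend the strands. Many of these genes are targets of E2F transcription factors, and most hepatocytes of an adult liver are outside the cell cycle.

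The MCM helicase genes were low in 3 of the groups and high in refed LKO. Mcm5 (ENSMUSG00000005410, chr8:75836197-75855067 in mm39) stood at 2.04, 1.69, 2.02 and 1.73 CPM in fasted control and at 2.94, 1.70, 5.61 and 2.05 CPM in fasted LKO. It stood at 2.94, 4.89, 6.37 and 2.85 CPM in refed control and at 48.2, 17.1, 20.4 and 31.9 CPM in refed LKO. Every refed LKO library was thus above the 12 others, and the refed LKO mean was 6.91 times the refed control mean, with a log2 fold change of 2.76 (SE 0.36). Mcm6 (ENSMUSG00000026355, chr1:128259327-128287401 in mm39) stood at 3.08, 2.69, 2.21 and 3.21 CPM in fasted control and at 3.34, 1.36, 3.98 and 2.30 CPM in fasted LKO. In refed livers Mcm6 stood at 3.19, 4.14, 4.86 and 4.14 CPM in control and 49.9, 16.2, 11.9 and 22.8 CPM in LKO, a log2 fold change of 2.62 (SE 0.37). Again all 4 refed LKO libraries lay above the rest, with S52 at more than any other. Bulk RNA cannot tell fewer or more cells that express a gene from less or more of its RNA per cell, here or for any member that follows.

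The other 4 subunits of the ring had smaller differences in the same direction. Mcm2 stood at 4.27, 2.63, 3.67 and 4.08 CPM in fasted control, 5.44, 4.47, 8.07 and 6.03 CPM in fasted LKO, 5.05, 5.47, 5.09 and 5.77 CPM in refed control, and 31.2, 11.4, 14.5 and 23.4 CPM in refed LKO. Mcm3 stood at 3.82, 4.03, 4.04 and 3.46 CPM, then 4.89, 3.28, 6.45 and 3.36 CPM, then 4.92, 5.74, 6.89 and 4.89 CPM, and 33.5, 10.6, 13.2 and 21.5 CPM in the groups in the same order. Refed LKO did not overlap the other groups for either gene, and S46 was the highest fasted LKO library for both. Mcm4 stood at 2.28, 1.81, 2.97 and 2.41 CPM in fasted control, 2.69, 3.73, 5.55 and 2.49 CPM in fasted LKO, 3.77, 3.19, 4.74 and 3.12 CPM in refed control, and 19.9, 6.54, 8.84 and 12.6 CPM in refed LKO. Mcm7, the most abundant subunit outside refed LKO, stood at 11.9, 11.0, 11.7 and 12.5 CPM in fasted control, 16.1, 13.9, 15.8 and 12.6 CPM in fasted LKO, 10.8, 11.1, 16.2 and 14.1 CPM in refed control, and 46.9, 24.3, 25.3 and 30.4 CPM in refed LKO. The lowest refed LKO value of Mcm4 or Mcm7 exceeded the highest value elsewhere. On the log2 scale, refed LKO over refed control was 1.92 (SE 0.26) for Mcm2, 1.81 (SE 0.29) for Mcm3, 1.69 (SE 0.31) for Mcm4 and 1.28 (SE 0.18) for Mcm7. Mcm7 overlaps Cops6 and Ap4m1 on the other strand, and use of strand in counting is not given in the sources used here, so its reads cannot be told from theirs. In the tables' coordinates 15 of the 42 members overlap a gene on the other strand in this way: Mcm7, Cdc45, Gins2, Orc1, Orc2, Orc4, Orc5, Orc6, Pcna, Rfc2, Rfc4, Rfc5, Fen1, Lig1 and Chaf1a.

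**Figure D1:**
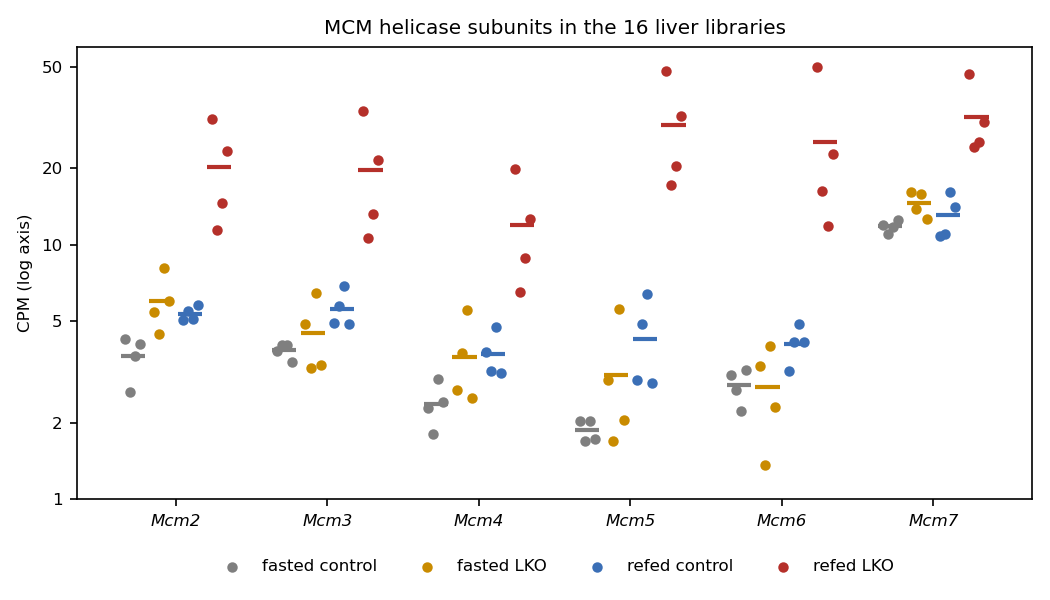
CPM of the 6 MCM helicase genes on a log axis, with 1 point per library and a bar at the mean of each group of 4. The refed LKO points lie above all other points of the same gene, from 6.54 CPM for Mcm4 in S53 up to 49.9 CPM for Mcm6 in S52.

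Summed over the ring, Mcm2 to Mcm7 reached 23.8 to 27.4 CPM in fasted control, 28.4 to 45.4 CPM in fasted LKO, 30.7 to 44.1 CPM in refed control and 86.1 to 229.6 CPM in refed LKO. Within refed LKO the sums were 229.6 CPM in S52, 86.1 CPM in S53, 94.2 CPM in S54 and 142 CPM in S55. The lowest of these 4 sums was above the highest of the other 12. Without S52 the log2 fold change, refed LKO over refed control, was 1.63 for Mcm2, 1.43 for Mcm3, 1.33 for Mcm4, 2.42 for Mcm5, 2.05 for Mcm6 and 1.03 for Mcm7.

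The subunits form a ring with 1 copy of each, but their RNA levels were unequal. Levels were compared between genes as RPKM, the counts per kilobase of the deposited gene length and per 1000000 counts of the library. Mcm7 was highest in fasted control at 2.57 ± 0.175 RPKM and Mcm5 lowest at 0.452 ± 0.0402 RPKM (SD, n = 4), a ratio of 5.69. In refed LKO the order was Mcm5, Mcm7, Mcm6, Mcm3, Mcm4 and Mcm2, from 7.57 ± 3.59 RPKM for Mcm5 to 2.97 ± 1.32 RPKM for Mcm2 (SD, n = 4), a ratio of 2.55. Neighbours in that refed LKO order differed by less than the SD of the higher one. The ratio of highest to lowest subunit within a library ran from 5.28 to 6.57 in fasted control, 4.17 to 10.8 in fasted LKO, 3.17 to 4.98 in refed control and 2.38 to 3.35 in refed LKO. Fasted control and refed LKO libraries did not overlap in that ratio, whereas refed control and refed LKO did.

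Many of these genes are known E2F targets, so the members' promoters were searched for E2F letters. Windows of 300 bases, 250 before and 50 after a start, came from RefSeq on GRCm38.p6, an older build than that of the tables. The words TTTCCCGC, TTTGGCGC, TTTCGCGC and TTTGCCGC were searched on both strands, and overlapping matches were kept. Of the 42 members 35 had a window, and 15 of their 43 windows (34.9%) held a word, against 744 of 32851 windows of all genes (2.26%). The upstream stretches around the matches of 4 members that stood higher in refed LKO, and of Orc3, which did not, are shown with the matched letters in capitals, 5′ to 3′ on the gene's strand. They lie at chr8:75109330-75109393 (+) for Mcm5, chr1:128359719-128359841 (-) for Mcm6, chr5:138172015-138172074 (-) for Mcm7, chr11:98907987-98908046 (+) for Cdc6 and chr4:34614950-34615009 (-) for Orc3, all on GRCm38.p6.
Mcm5: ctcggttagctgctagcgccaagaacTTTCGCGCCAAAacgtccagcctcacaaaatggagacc
Mcm6: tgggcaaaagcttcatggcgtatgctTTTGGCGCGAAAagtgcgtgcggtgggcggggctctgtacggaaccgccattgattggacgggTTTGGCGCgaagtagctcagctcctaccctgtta
Mcm7: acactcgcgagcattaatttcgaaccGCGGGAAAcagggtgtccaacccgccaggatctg
Cdc6: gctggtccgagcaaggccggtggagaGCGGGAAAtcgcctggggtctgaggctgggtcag
Orc3: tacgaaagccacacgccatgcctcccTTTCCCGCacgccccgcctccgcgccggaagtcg

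In Mcm5 the capitals are 2 overlapping matches on opposite strands, and Mcm6 has such a pair and another word closer to the start. Of the tested members with a window, the 13 that held a word had refed log2 fold changes from −0.19 (Orc3) to 3.39 (Cdc6), with a median of 1.28. The 19 without a word ran from 0.05 (Orc4) to 2.36 (Chaf1b), with a median of 0.72. The ranges overlapped, and Mcm2 (1.92), Chaf1a (1.80) and Chaf1b, which held no word, stood above the median of members with one. The largest values, of Cdc6, Mcm5 (2.76) and Mcm6 (2.62), were in members with a word. The letters CCAAT were in 24 of the 43 member windows (55.8%) against 37.4% of all windows. The letters TTTGAA were in 5 member windows (11.6%) against 17.9%. A match is a run of letters in this window and not a binding site.

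Of the loaders of the helicase, Cdc6 was near the detection limit outside refed LKO and Cdt1 was not. Cdc6, the ATPase that joins ORC to bring in the ring, stood at 0.0496, 0.234, 0.569 and 0.0618 CPM in fasted control and 0.200, 0.170, 0.112 and 0.186 CPM in fasted LKO. It stood at 0.128, 0.372, 0.358 and 0.0679 CPM in refed control and 5.07, 1.18, 1.79 and 2.56 CPM in refed LKO. These are 15, 12, 19 and 205 counts in the 4 groups, and all refed LKO libraries exceeded the others. Its refed log2 fold change of 3.39 (SE 0.57) was the largest of the members and its error the widest. Cdt1, the partner of CDC6 in loading, stood at 21.5, 6.87, 8.78 and 13.5 CPM in refed LKO against 2.11, 2.02, 4.66 and 2.71 CPM in refed control, a log2 fold change of 2.11 (SE 0.42). Unlike Cdc6 it also stood high in part of fasted LKO, at 8.29 and 7.57 CPM in S44 and S46, so that refed LKO overlapped fasted LKO.

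Of the ORC subunits, which mark the origins, 0 of the 5 tested were called by edgeR between refed genotypes, against 3.63% of all genes. With 5 genes, a count of 0 cannot be told from that share. Of the 5 subunits, 1 had an unadjusted edgeR p under 0.05. Orc6 had the largest value of these, with 7.01, 4.32, 5.19 and 7.23 CPM in refed LKO against 4.34, 3.29, 3.74 and 4.62 CPM in refed control, and a log2 fold change of 0.58 (SE 0.21). It stood at 3.03, 2.80, 2.46 and 4.88 CPM in fasted control and 2.90, 3.85, 3.19 and 3.54 CPM in fasted LKO. Refed LKO overlapped refed control, with S53 just under S48. The refed log2 fold changes were 0.13 (SE 0.24) for Orc2, −0.19 (SE 0.11) for Orc3, 0.05 (SE 0.10) for Orc4 and 0.11 (SE 0.12) for Orc5. Orc1 was at 0.665, 0.0654, 0.185 and 0.606 CPM in refed LKO and at 0 to 0.349 CPM elsewhere, with 31 counts in refed LKO and 9 in refed control.

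Among the activators of the helicase, the genes split. Gins2 stood at 5.58, 1.64, 1.67 and 3.08 CPM in refed LKO and 1.15, 0.744, 0.876 and 0.882 CPM in refed control, a log2 fold change of 1.72 (SE 0.43). Fasted livers held 1.04, 0.350, 0.822 and 0.741 CPM in control and 0.549, 0.962, 0.336 and 1.24 CPM in LKO. The refed LKO libraries lay above all 12 others, the closest at 1.64 against 1.24 CPM. Cdc45 (1.53, SE 0.36) and Gins1 (1.12, SE 0.18) had the same pattern, while Gins3 had a value of 0.78 (SE 0.40) and overlapped refed control. The Gins3 value was 0.50 without S49 and 1.20 without S50. Gins4 (0.15, SE 0.11) and Mcm10 (0.14, SE 0.22) did not stand apart. Mcm10, which helps the helicase open the duplex, ran from 66.6 to 156 CPM over all libraries. Per length it was the highest member in every group, at 15.9, 15.6, 11.9 and 13.5 RPKM in fasted control, fasted LKO, refed control and refed LKO, followed by Gins4 in each. In refed LKO, Mcm10 was highest in S53 and lowest in S52, the reverse of most members.

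RPA, the trimer that coats single-stranded DNA, was higher in refed LKO in all 3 subunits. Rpa2 stood at 7.35, 8.76, 7.20 and 9.64 CPM in fasted control, 6.39, 8.37, 8.41 and 7.15 CPM in fasted LKO, 6.26, 5.84, 7.12 and 7.87 CPM in refed control, and 21.4, 13.5, 11.8 and 16.6 CPM in refed LKO. The lowest refed LKO library was above the highest of the others. Refed log2 fold changes were 0.49 (SE 0.09) for Rpa1, 1.23 (SE 0.17) for Rpa2 and 0.75 (SE 0.18) for Rpa3.

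In the clamp loader the small subunits stood higher and the large one did not. Rfc4 stood at 2.08, 2.16, 2.02 and 2.04 CPM in fasted control, 2.30, 1.98, 2.58 and 2.11 CPM in fasted LKO, 2.30, 1.65, 2.31 and 2.99 CPM in refed control, and 8.19, 5.30, 3.65 and 5.93 CPM in refed LKO. No refed LKO library overlapped the other 12, although Rfc4 overlaps Eif4a2 on the other strand. The refed log2 fold change was 1.33 (SE 0.22) for Rfc4, 0.70 (SE 0.08) for Rfc2, 0.80 (SE 0.15) for Rfc3, 0.86 (SE 0.17) for Rfc5 and 0.08 (SE 0.13) for Rfc1. For Rfc2, refed LKO (36.6 to 46.9 CPM) overlapped fasted LKO (32.2 to 37.4 CPM), with 0.22 (SE 0.08) between them. Its refed control libraries (24.1 to 26.8 CPM) lay below fasted control (30.1 to 33.9 CPM). Pcna, the sliding clamp, stood at 38.5, 20.3, 19.5 and 21.9 CPM in refed LKO against 12.5, 18.2, 15.4 and 14.7 CPM in refed control, a log2 fold change of 0.72 (SE 0.18). Without S52 the Pcna value was 0.44, more than 1.5 times smaller.

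The replicative polymerases differed by subunit. Pole, the catalytic subunit of the leading-strand polymerase epsilon, stood at 0.943, 0.584, 1.26 and 1.17 CPM in fasted control and 0.699, 0.792, 0.841 and 0.497 CPM in fasted LKO. In refed livers Pole stood at 1.53, 0.850, 1.87 and 1.02 CPM in control and 9.57, 3.40, 3.21 and 4.38 CPM in LKO, a log2 fold change of 1.95 (SE 0.35). Refed LKO again lay above the 12 others, with S52 the highest at 9.57 CPM and S55 next at 4.38 CPM. Pold1, the catalytic subunit of polymerase delta, had a refed log2 fold change of 1.13 (SE 0.18), and its accessory subunits had smaller values, 0.50 (SE 0.13) for Pold2 and 0.55 (SE 0.16) for Pold3. Of primase, Prim1 had 1.50 (SE 0.35) and Prim2 0.63 (SE 0.23), and of polymerase alpha, Pola1 had 0.90 (SE 0.33) and Pola2 0.57 (SE 0.16). Prim1 without S52 was 0.96, more than 1.5 times smaller. Pole2 was at 1.07, 0.392, 0.742 and 0.780 CPM in refed LKO and at 0 to 0.478 CPM elsewhere.

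In Okazaki fragment joining and chromatin assembly, Lig1, Chaf1a and Chaf1b followed the helicase. Lig1, the ligase that seals the fragments, stood at 2.43, 1.81, 2.53 and 2.66 CPM in fasted control, 5.24, 3.06, 2.69 and 3.60 CPM in fasted LKO, 2.17, 2.18, 3.78 and 2.71 CPM in refed control, and 18.1, 5.76, 6.80 and 9.49 CPM in refed LKO. Its refed log2 fold change was 1.87 (SE 0.32), and the closest libraries were S53 at 5.76 CPM and S44 at 5.24 CPM. Fen1, the flap nuclease, was at 1.33, 0.589, 0.494 and 0.780 CPM in refed LKO against 0.383, 0.372, 0.358 and 0.272 CPM in refed control. Its refed LKO libraries overlapped fasted control, where S42 stood at 0.5055 CPM. Chaf1b, a subunit of the CAF-1 complex that places histones on new DNA, stood at 1.49, 1.23, 1.33 and 1.24 CPM in fasted control and 0.998, 1.36, 1.29 and 0.746 CPM in fasted LKO. It stood at 1.02, 0.850, 1.19 and 0.339 CPM in refed control and 7.98, 3.47, 2.84 and 3.64 CPM in refed LKO, a log2 fold change of 2.36 (SE 0.35), with no overlap. Chaf1a, the large subunit, had a value of 1.80 (SE 0.28).

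Counted over the list, 28 of the 39 tested members had every refed LKO library above every refed control library, a background of 6.7% over all 14488 genes. Of all 42 members, 24 had refed LKO above all 12 other libraries (1.39% of genes tested). By edgeR's quasi-likelihood test, 26 of the 39 were called in refed LKO against refed control at a Benjamini-Hochberg adjusted p under 0.05, each higher, where percent called was 3.63 over all genes in either direction and 2.28 for higher alone. The median log2 fold change was 0.90 for the members and −0.01 for all genes. Since the members were chosen from this comparison, these counts describe them and are not read as a test. Without S52, 20 of 39 were called against 2.99% of all genes, and the median was 0.70. Without S48 of refed control, 20 of 41 were called against 1.33% of all genes.

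**Figure D2:**
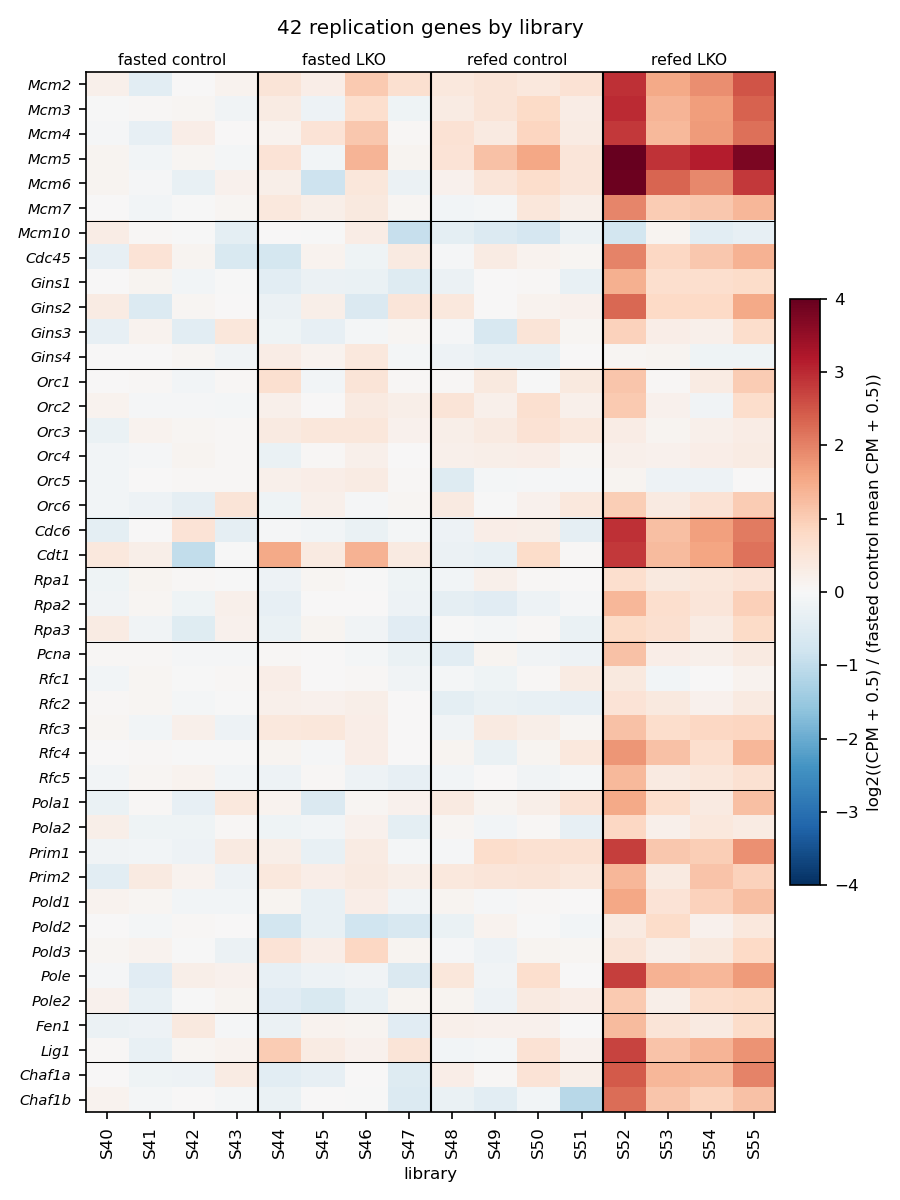
Heat map of the 42 members (rows, grouped by role) in the 16 libraries (columns, grouped by genotype and feeding), coloured by log2 of CPM plus 0.5 over the fasted control mean plus 0.5, with colours ending at 4. Refed LKO columns are red for most rows, deepest in S52 and for Mcm5 and Mcm6, while Mcm10, Gins4 and Orc3 to Orc5 stay pale.

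The 4 refed LKO libraries differed among themselves. Against the fasted control mean, the median log2 deviation of the tested members was 1.50 in S52, 1.14 in S55, 0.74 in S53 and 0.73 in S54, against −0.00 to 0.27 in the 12 others. S52 was the highest refed LKO library for 36 of the 42 members. The lowest was S53 for 24 members, S54 for 17 and S52 for 1, so S53 and S54 mostly set whether refed LKO overlapped refed control, while S52 raised the size of the difference.

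The fasted comparison asked whether the replication genes differed between genotypes after the fast. In fasted LKO against fasted control, 2 of the 39 members were called (5.13%), 1 in each direction, against 12.2% of all genes (5.75% higher and 6.48% lower). Orc3, a subunit of ORC, rose from 9.73, 13.0, 12.4 and 12.3 CPM in fasted control to 15.3, 16.4, 16.6 and 13.4 CPM in fasted LKO, without overlap. The log2 fold change was 0.38 (SE 0.11, edgeR adjusted p = 0.0341). This call was lost in 8 of 23 alternatives, with adjusted p from 0.0193 to 0.108, among them leaving out any of S40 and S42 to S46. Pold2, the second subunit of polymerase delta, fell from 16.6, 15.5, 17.1 and 16.9 CPM to 9.78, 13.3, 9.25 and 10.4 CPM, also without overlap. Its log2 fold change was −0.63 (SE 0.13, edgeR adjusted p = 0.00665), and it was called in all 23 alternatives.

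No subunit of the helicase passed that fasted test by edgeR, and 1 of the 6 had an unadjusted p under 0.05. Values were 0.71 (SE 0.28, edgeR adjusted p = 0.109) for Mcm2, 0.23 (SE 0.32, adjusted p = 0.695) for Mcm3, 0.61 (SE 0.33, adjusted p = 0.255) for Mcm4 and 0.72 (SE 0.42, adjusted p = 0.300) for Mcm5. Mcm6 had −0.02 (SE 0.42, edgeR adjusted p = 0.981) and Mcm7 0.31 (SE 0.19, adjusted p = 0.315). Thus 5 of the 6 had a value above 0, with a median of 0.46. The ring sums of fasted LKO lay above those of fasted control, the closest at 28.4 against 27.4 CPM. Taken singly, 2 of the 6 subunits did not overlap. The share of all genes that did not is not given, so this count is not read as a difference. By edgeR 0 of the 6 were called, against 12.2% of all genes. Refed control sums, from 30.7 CPM, also lay above those of fasted control. Among the other members the largest value was that of Cdt1, 1.13 (SE 0.43, edgeR adjusted p = 0.0981), and Pold3 came closest to the threshold with 0.49 (SE 0.16, adjusted p = 0.0577). The members' median log2 fold change was 0.03, against 0.02 for all genes. S46 was the highest fasted LKO library for 20 of the 42 members.

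**Figure D3:**
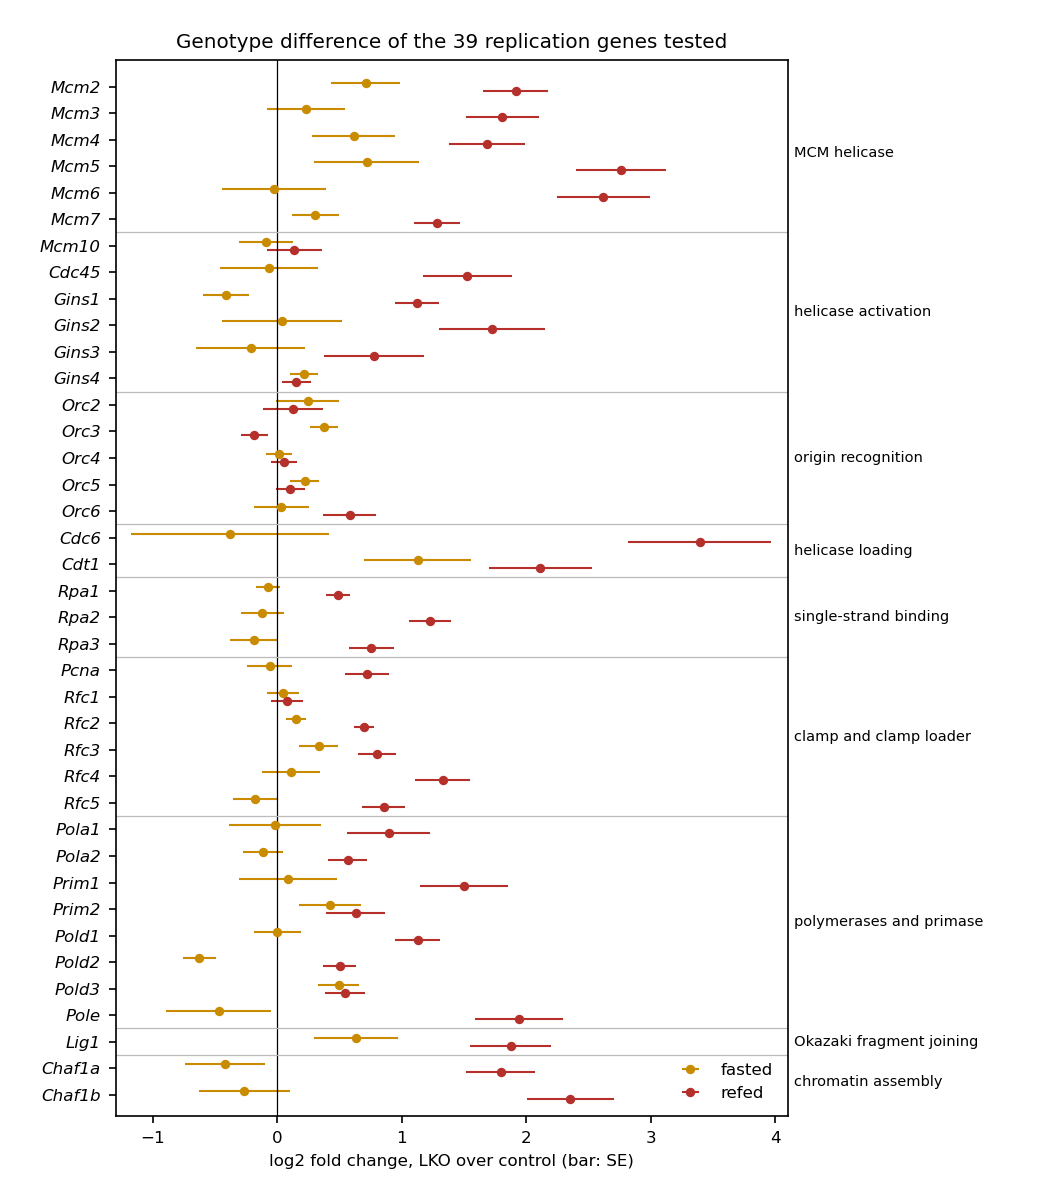
Log2 fold change of LKO over control with its SE for the 39 tested members, grouped by role, after the fast (amber) and after refeeding (red). Fasted values run from −0.63 (Pold2) to 1.13 (Cdt1), and refed values from −0.19 (Orc3) to 3.39 (Cdc6).

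The comparison within control livers asked what refeeding did in control livers. In refed against fasted control, 2 of the 39 members were called, 1 in each direction, against 15.4% of all genes (7.79% higher and 7.65% lower). Orc3 rose to 14.1, 15.3, 18.1 and 16.0 CPM, a log2 fold change of 0.42 (SE 0.11, edgeR adjusted p = 0.0167). The rise was measured against the same fasted control libraries as its fasted genotype difference, and it lost its call without S40 or S50. Rfc2, a small clamp loader subunit whose gene overlaps Lat2 on the other strand, fell from 33.0, 33.9, 30.1 and 31.4 CPM to 24.1, 26.8, 26.1 and 25.7 CPM, without overlap. Its log2 fold change was −0.32 (SE 0.08, edgeR adjusted p = 0.0146), called in all 23 alternatives. Mcm5 had the largest value of the members, 1.21 (SE 0.41), and was not called (edgeR adjusted p = 0.0550). All 6 helicase subunits had values above 0, from 0.15 for Mcm7 to 1.21 for Mcm5, none of them called by edgeR and 1 with an unadjusted p under 0.05.

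Refeeding in LKO livers is described only, as it shares the refed LKO libraries that led to the members. There 28 of the 39 were called, each higher, where percent called was 18.1 over all genes and 9.28 for higher alone. The median was 1.08 on the log2 scale, and without S52, 25 were called against 12.2% of all genes. The means of refed LKO were 9.57 times those of fasted LKO for Mcm5, 9.18 times for Mcm6, 7.27 times for Pole and 6.08 times for Chaf1a. Pold2, which was low in fasted LKO, had a log2 fold change of 1.07 (SE 0.13) here.

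The refed genotype effect minus the fasted one, an interaction of genotype and feeding, was called for 7 of the 39 members, against 0.538% of all genes (0.311% higher). All 7 had positive values: 2.64 (SE 0.56) for Mcm6, 2.62 (SE 0.51) for Chaf1b, 2.22 (SE 0.42) for Chaf1a, 1.54 (SE 0.26) for Gins1, 1.35 (SE 0.24) for Rpa2, 1.13 (SE 0.19) for Pold2 and 0.54 (SE 0.11) for Rfc2. The largest value, 3.77 (SE 1.01) for Cdc6, was not among them. The median over the members was 0.99. Without S48, 0 of 41 were called by edgeR (lowest adjusted p 0.0543) against 0.0542% of all genes. At an unadjusted edgeR p under 0.05, 26 of 41 were higher and 1 lower. The share of all genes at that threshold is not given, and this comparison led to the members, so these counts only describe them. DESeq2 on all libraries called 18 members and 3.22% of all genes.

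Other genes of replication and the cell cycle were read from 7 lists that hold no member, in refed LKO against refed control, where percent called was 3.63 over all genes. In licensing and origin control, 2 of 9 tested genes were called, each higher: Mcm8 (1.16) and Mtbp (1.20). In fork protection, clamp loading and Okazaki processing the count was 3 of 15, Chtf18 (2.25), Top2a (2.17) and Pole3 (0.33), with a list median of 0.33. In nucleotide supply it was 3 of 10, Rrm1 (1.01), Tyms (0.74) and Dtymk (0.45), with a median of 0.40. Rrm1 encodes the large subunit of ribonucleotide reductase, the enzyme that makes deoxynucleotides.

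Chromatin copying held the largest share, 5 of 9 called, each higher, with a median of 0.65. Uhrf1, which brings the methyltransferase DNMT1 to newly copied DNA, had a log2 fold change of 3.12, and Dnmt1 itself 0.65. Mms22l (2.02), Asf1b (1.79) and Slbp (0.58) were the others, and Rbbp4 was lowest at 0.11. Of the E2F and pocket protein genes 2 of 12 were called, E2f1 (1.42) and Rbl1 (1.15), and of the G1/S cyclins and kinases 1 of 11, Cdc25a (0.76). E2f1 stood at 4.54 to 5.49 CPM in refed control and 7.78 to 21.4 CPM in refed LKO.

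Most genes of the later cell cycle had values above 0. In the G2/M and mitosis list 1 of 16 tested genes was called (6.25%, against 3.63% of all genes), Cdk1, the mitotic kinase, with 1.93. Of the 16 genes, 14 had a value above 0 and 4 an unadjusted edgeR p under 0.05. Their median was 0.51, and the range ran from −0.81 for Ccnb2 to 2.13 for Cdc20. Mki67, a proliferation marker, stood at 0.796 to 1.02 CPM in refed control and 0.865 to 1.64 CPM in refed LKO, overlapping, with a log2 fold change of 0.28. Most genes of this list were near 1 CPM, so single values carry wide errors.

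**Figure D4:**
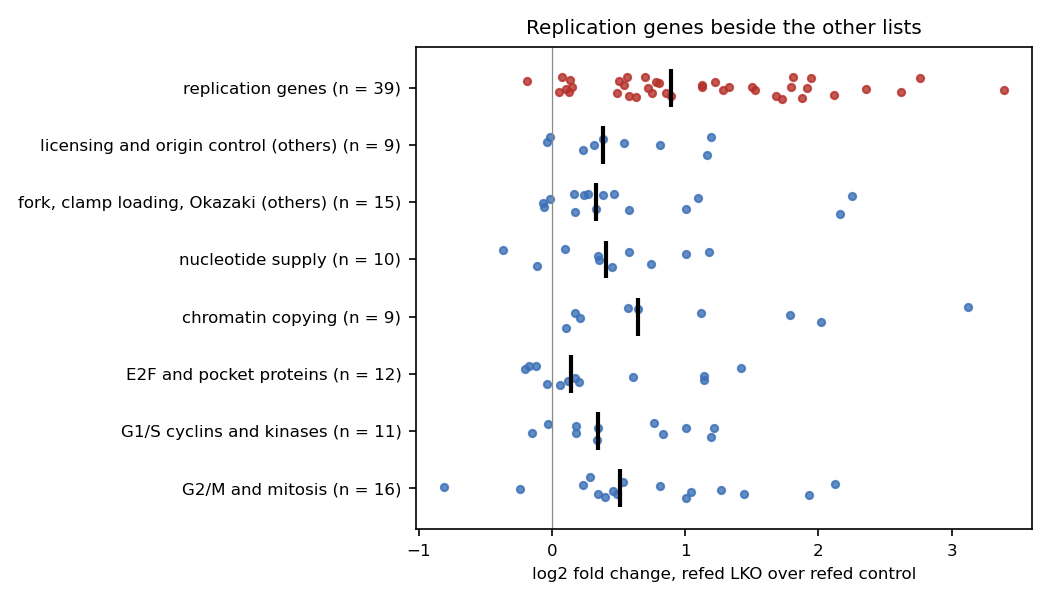
Log2 fold change of refed LKO over refed control for each tested gene (points) of the replication genes and of the 7 other lists, with a bar at each list's median. The medians are 0.90 for the replication genes, 0.65 for chromatin copying, 0.51 for G2/M and mitosis and 0.15 for the E2F and pocket protein genes.

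After the fast 7 of the 82 tested genes of these lists were called by edgeR (8.54%), 3 higher and 4 lower, against 12.2% of all genes. Tk1, the thymidine kinase of the salvage route, fell in fasted LKO (−1.33, edgeR adjusted p = 0.011), as did Dctpp1 (−0.48), 2 of the 10 nucleotide supply genes. Of the E2F and pocket protein genes E2f8 (1.18) and E2f6 (0.46) rose while E2f2 (−1.33) and E2f4 (−0.27) fell. Cdk2 rose by 0.37 on the log2 scale. In refed against fasted control 9 of the 82 were called, against 15.4% of all genes: Mcm9, Timeless, Dna2, Top1 and Rbbp4 rose and Pold4, Ccnd3, Cdk4 and Cdk6 fell.

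The genes most like the helicase were sought by Pearson's r of log2 CPM with the mean of Mcm2 to Mcm7 over the 16 libraries, among 12658 genes with a mean of at least 1 CPM. The 10 nearest genes outside the list were Uhrf1 (0.971), Rrm1 (0.958), Dnmt1 (0.943), Hat1 (0.937), Mms22l (0.929), Tcf19 (0.915), Smc2 (0.910), Mtbp (0.906), 2810408I11Rik (0.904) and Hells (0.902). The libraries share depth and group, so these are descriptions, and with group means removed the values fell to between 0.510 (Hells) and 0.827 (Uhrf1). Some genes reached the mean of 1 CPM only through refed LKO, so a high r was partly set by that filter. Hells had means of 0.384, 0.545 and 0.708 CPM in the other groups and 4.42 CPM in refed LKO. The member Gins2 had 0.739, 0.773 and 0.913 CPM and 2.99 CPM. Of the 31 other members compared, 18 had an r of at least 0.8, as did 1.14% of all genes, and their median was 0.811. Mcm10 (−0.28), Gins4 (−0.07), Orc5 (−0.05) and Orc3 (0.19) were least like the helicase over the 16 libraries. With group means removed the order changed. Pold2 (−0.30) was then lowest, with Mcm10 at −0.15, Gins4 at 0.28, Orc3 at 0.42 and Orc5 at 0.63. The 18 members then ran from 0.22 (Cdc45) to 0.87 (Prim1).

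Markers of other cell types were measured beside the replication genes. The 6 B or plasma cell markers summed to 11.7 to 19.1 CPM in refed control and 26.8 to 56.9 CPM in refed LKO, and to 8.21 to 21.9 CPM and 28.4 to 43.1 CPM in fasted control and LKO. Of its 4 tested genes only Jchain was called in refed LKO, at 12.3 to 31.6 CPM against 0.796 to 2.23 CPM. Jchain stood at 7.89 to 27.4 CPM in fasted LKO, where the helicase genes were low, and S52 had the lowest B or plasma cell sum of refed LKO and the highest helicase sum. The part of these cells in the result was not tested.

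The remaining marker sums overlapped between refed genotypes. The T or NK lymphocyte list gave 5.02 to 11.2 CPM in control and 7.01 to 12.0 CPM in LKO. Of its 6 genes 5 had a refed log2 fold change above 0 and 1, Ptprc, the most abundant, below 0. Their median was 0.87, near that of the members, 3 had an unadjusted p under 0.05 and 0 were called by edgeR. The part of these cells in the result was not tested either. Macrophage markers gave 132 to 331 CPM and 140 to 185 CPM, with 6 of 6 values below 0, a median of −0.59, 4 at an unadjusted p under 0.05 and 0 called by edgeR. Endothelial cells gave 110.1 to 175 CPM and 131 to 175 CPM. Of the 6 endothelial genes 2 had a refed log2 fold change above 0 and 4 below 0, with a median of −0.07. Of these 6, 1 was called by edgeR, Clec4g (0.44, higher), against 3.63% of all genes. Stellate cell or fibroblast markers gave 185 to 226 CPM and 163 to 221 CPM, cholangiocytes 30.2 to 58.6 CPM and 34.5 to 38.5 CPM, and erythroid cells 263 to 745 CPM and 219 to 974 CPM, S52 being the highest of refed LKO for the last 2. Neutrophil markers gave 0.611 to 1.66 CPM and 0.256 to 1.05 CPM, with Ly6g at 0 in both groups and Retnlg at 0 in refed LKO. Adipocyte markers gave 15.2 to 62.1 CPM and 10.6 to 27.9 CPM, with Lep at 0 in both groups and Adipoq at 0 in refed control. Among the hepatocyte markers the sums were 66570 to 87330 CPM and 59090 to 72690 CPM. Of these 8 genes 7 had a refed log2 fold change below 0 and 1, Apoa1, above 0. Their median was −0.26, with 3 at an unadjusted p under 0.05 and 0 called by edgeR.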

How the data were processed

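For 16 samples of mouse liver, poly-A RNA was sequenced, with HISAT2 2.0.5 and the build mm39 named in the submitters' processing notes. The counting tool, its use of strand and the annotation are not given in the sources used here. The authors deposited 4 tables, one per pair of groups, with whole-number read counts per gene and library, and the length of each gene in bases. Count columns carry library names, and the group heading shared by the tables that hold a library gave its group. The tables were joined by gene identifier into 25803 genes, 0 counts differed between tables, and 3148 genes missing from a library's tables were set to 0 there. Normalized values and FPKM, 64 columns of them, were left aside, and RPKM was computed here from the counts and the deposited lengths.

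Testing used edgeR 4.0.16 under R 4.3.3. Genes passing filterByExpr (14488) were scaled by TMM factors (0.941 to 1.07), and glmQLFit took 1 coefficient per group, with a common biological coefficient of variation of 0.185. The quasi-likelihood test was applied to 5 contrasts, called at a Benjamini-Hochberg adjusted p under 0.05 over all genes tested, and the SE is the log2 fold change divided by the root of F. Alternatives were DESeq2 1.42.0, limma-voom (limma 3.58.1), other size factors, other filters, only the groups compared, and each library left out in turn.

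The members and gene lists were chosen with earlier results of these data known. Values are printed for every library for Mcm2 to Mcm7 and for the member of largest refed change in each other role, and members called in a tested comparison are named. Other members, Mki67, and genes of the lists that were called or had the largest or smallest value, were named after their values were seen. Library totals of 14721601 to 24618230 counts make genes under 1 CPM imprecise. Promoter windows and their sequences are RefSeq's on GRCm38.p6, searched for exact letters in Python 3.11.15.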

Additional observations from a re-analysis of the deposited data

Results flagged for a closer look

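In 8 of the 168 pairs of a member and a group, 1 library stood far from the other 3 by Dixon's critical value for 4 libraries. Chance gives about 1 in 20 such pairs, close to this number. In refed LKO all 3 were high values of S52: 10.7 CPM for Gins1, 38.5 CPM for Pcna and 7.98 CPM for Chaf1b, whose other 3 libraries stood at 2.84 to 3.64 CPM. In fasted control the pairs were Orc2 (high, 2.38 CPM) and Orc5 (low, 12.4 CPM) in S40 and Prim1 (high, 2.35 CPM) in S43. The others were low values, of Pola1 in S45 of fasted LKO (0.453 CPM) and of Orc5 in S48 of refed control (9.07 CPM).

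The refed minus fasted genotype effect was called by edgeR for 7 members. This comparison was among those that led to the choice of members, so the values are descriptions. On the log2 scale they were 2.64 for Mcm6, 1.54 for Gins1, 1.35 for Rpa2, 0.54 for Rfc2, 1.13 for Pold2, 2.22 for Chaf1a and 2.62 for Chaf1b. Of 22 alternatives the call was lost in 14 for Rfc2, 13 for Mcm6, 10 for Chaf1b, 7 for Chaf1a, 5 for Rpa2 and 1 each for Gins1 and Pold2. Leaving out S48 was among them for each of the 7.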

How the results depend on the processing

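No paired analysis was possible because the count columns carry no replicate numbers. The 26 members called in refed LKO against refed control ranged from 20 to 28 over 23 alternatives, and the 28 called in refed against fasted LKO from 25 to 31. Among all genes tested, 197 to 924 and 1795 to 2896 were called over the same alternatives. The member counts that moved most were small ones. In fasted LKO against control, 2 members became 4 with DESeq2 (10.3%, against 14.8% of all genes). With only the 2 groups compared the number was 1 (2.63% against 9.03%). It was 1 with no filter and 1 to 3 with a library left out, where 1476 and 1048 to 1985 of all genes were called. In refed against fasted control, 2 became 4 with only the 2 groups compared (10.5%, against 14.5% of all genes). With a library left out the number was 1 to 3, where 1220 to 2483 of all genes were called. The interaction's 7 members became 18 with DESeq2 (46.2%, against 3.22% of all genes) and 4 with limma-voom (10.3% against 0.552%). With a library left out the number was 0 to 9, the 0 without S48, and 8 to 282 of all genes were called. Leaving out S40 gave 3, S41, S42 or S46 gave 4, and S43, S44, S50 or S55 gave 2. Of all genes called in the interaction 57.7% were higher, and 39.8% under upper quartile scaling. Refed log2 fold changes near 0 changed sign with a library left out: Mcm10 ranged from −0.037 to 0.26, Orc2 from −0.14 to 0.31, Rfc1 from −0.024 to 0.18 and Orc5 from −0.000674 to 0.15. Refed calls were lost in 12 of 23 alternatives for Pold2, 8 for Gins2, 7 for Rpa3, 6 for Pcna and for Prim1, and 5 for Cdc45. The cause was not tested. Depth limits the genes under 1 CPM most, among them Orc1, Pole2, Fen1 and Cdc6 outside refed LKO.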

Other observations

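Among the 4 refed LKO libraries the order of the helicase sum was the reverse of the order of the remaining Cpt1a RNA. S52, S55, S54 and S53 had Mcm2 to Mcm7 sums of 229.6, 142, 94.2 and 86.1 CPM and Cpt1a levels of 39.9, 41.9, 59.9 and 75.2 CPM. In fasted LKO the library with the highest helicase sum, S46 at 45.4 CPM, had the highest Cpt1a level, 126 CPM. With 4 libraries in a group no correlation is given. Uhrf1 followed the helicase sum in refed LKO, at 21.0, 9.96, 6.92 and 3.73 CPM in S52, S55, S54 and S53. In the deposited coordinates 4 members, Orc2, Orc5, Rpa1 and Rfc1, also overlap a gene on their own strand.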
